A study of Drosophila melanogaster with 18 samples.

Results

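The miRNAs of thorax and gut were compared in small RNA libraries from 10-d-old females of Drosophila melanogaster. The comparison rests on 6 of the 18 samples of the series, 3 thorax and 3 gut libraries, chosen by their tissue labels. All 6 came from wDah, a white-eyed form of the Dahomey wild-type stock, and both tissues share this genotype and age. According to the methods, the females were mated once, the stock carries Wolbachia, the thorax was taken after removal of the gut, and the gut samples were midguts freed of Malpighian tubules. Whether the 3 libraries of a tissue go back to different pools of flies is not stated, so the spread that the p-values measure may be no more than technical.

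A miRNA is cut from a hairpin precursor that can yield a mature strand from its 5′ side (5p) and from its 3′ side (3p). The strand that is loaded into an Argonaute protein guides it to transcripts that pair with the seed, which spans bases 2 to 8 of the miRNA. Hairpins that lie close together are often made from 1 primary transcript, and miRNAs with the same seed can share targets. The thorax is mostly flight and leg muscle with nerve cord, fat and cuticle, whereas the midgut is a tube of absorptive and endocrine cells with stem cells under them, wrapped in visceral muscle. In flies as in mammals, miR-1 is the miRNA best known for muscle.

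The first set of sequences holds 5 miRNAs that were higher in thorax and miR-277-5p, which was higher in gut, unlike the 3p strand of its hairpin. The seed is in capitals in every sequence.
miR-1-3p: uGGAAUGUaaagaaguauggag
miR-276a-3p: uAGGAACUucauaccgugcucu
miR-277-3p: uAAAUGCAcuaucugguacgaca
miR-277-5p: cGUGUCAGgagugcauuugca
miR-34-5p: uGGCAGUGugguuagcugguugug
miR-284-5p: cCUGGAAUuaaguugacuguguagcc
The second set holds 5 abundant miRNAs that were higher in gut.
miR-958-3p: uGAGAUUCuucuauucuacuuu
miR-314-3p: uAUUCGAGccaauaaguucgg
miR-956-3p: uUUCGAGAccacucuaauccauu
miR-283-5p: aAAUAUCAgcugguaauucugg
miR-10-3p: cAAAUUCGguucuagagagguuu
The third set holds 3 pairs of related miRNAs whose members were called in opposite tissues.
miR-263a-5p: aAUGGCACuggaagaauucacggg
miR-263b-5p: cUUGGCACugggagaauucac
miR-10-5p: aCCCUGUAgauccgaauuuguu
miR-993-5p: uACCCUGUaguuccgggcuuuug
miR-9a-5p: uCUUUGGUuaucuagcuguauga
miR-9b-5p: uCUUUGGUgauuuuagcuguaug
The last set holds the strands of mir-282, the hairpin whose major strand changed from 3p in thorax to 5p in gut.
miR-282-3p: aCAUAGCCuauaagagguuagg
miR-282-5p: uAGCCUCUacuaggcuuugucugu

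Sequences and positions are those of RefSeq on the Release 6 assembly, in which 424 of the 426 mature names of the table were found. Exons of long non-coding RNA genes hold the hairpins of mir-1 (chr2L:20487441-20487531, plus strand) and mir-276a (chr3L:10365228-10365325, plus strand). The hairpins of mir-277 (chr3R:10100022-10100121, plus strand) and mir-34 (chr3R:10100936-10101034, plus strand) lie in exons of the same long non-coding RNA gene, lncRNA:CR43459. An exon of Octbeta2R, an octopamine receptor gene, holds mir-284 (chr3R:12551515-12551614, minus strand), and an intron of Gmap holds mir-283 (chrX:15507956-15508055, plus strand). The hairpin of mir-958 (chr3L:22669289-22669380, minus strand) lies in an exon of lncRNA:CR43270. The hairpins of mir-314 (chr3L:11773012-11773101, plus strand) and mir-956 (chr3L:11773731-11773878, minus strand) lie between genes, 629 bases apart and on opposite strands. Those of mir-10 (chr3R:6809506-6809582, minus strand) and mir-993 (chr3R:6776333-6776451, plus strand) lie in the Antennapedia complex of Hox genes.

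The thorax libraries held 9841880, 9519544 and 9681863 miRNA counts and the gut libraries 986198, 7081807 and 5479229. A single count was thus worth 1.01 counts per 1000000 miRNA counts (CPM) in gut replicate 1 and 0.102 to 0.183 CPM in the other libraries. A level of 0 in gut replicate 1 still allows up to 3.04 CPM, the value of 3 counts, for counting error only. Gut replicate 1 also stood apart in composition, since chi-square divided by its degrees of freedom reached 2555 and 3553 against the other gut libraries, compared with 787 between those and 360.5 to 713 between thorax libraries. No pair was alike enough to be a single library deposited again. The thorax repertoire was the narrower one: the 5 most abundant names took 77.1 to 79.7% of the counts in thorax and 51.9 to 60.3% in gut, and 2 names made up 50% of the counts in each thorax library against 4 to 5 in gut.

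Of the 234 miRNAs with at least 10 counts over the 6 libraries, 131 (56.0%) differed between thorax and gut at an adjusted p under 0.05 (edgeR quasi-likelihood test, TMM normalization, Benjamini-Hochberg adjustment). Of these, 82 (35.0% of those tested) were higher in thorax and 49 (20.9%) in gut. The direction split depended on the scaling, on the count filter and on single libraries. Stricter count filters each left 190 miRNAs. With edgeR's expression filter, 62 were higher in thorax and 59 in gut, and with at least 10 counts in each of 3 libraries, 61 and 57. Relative to library totals, the counts were 45 for thorax and 83 for gut. With TMM, they were 50 and 73 without gut replicate 1, 52 and 61 without gut replicate 2, 46 and 58 without gut replicate 3, and 64 and 49, 53 and 47, and 58 and 50 without thorax replicates 1, 2 and 3. The median log2 fold change of all miRNAs then lay between -0.12 and 0.17 with a gut library left out and between 0.28 and 0.44 with a thorax library left out, so values without a library are shifted by this much too. With all 6 libraries, the median log2 fold change, thorax over gut, was 0.75 with TMM and -0.41 with library totals, a shift of 1.16. Size factors by relative log expression and totals without the 5 most abundant miRNAs of each tissue moved the median by 0.16 and 0.12 from that with TMM. A fold change in the text is therefore given on the TMM scale with its standard error (SE), whereas levels are plain CPM, and equal CPM in both tissues corresponds to a TMM log2 fold change of about 1.17. The 3 libraries of each tissue did not overlap on TMM-normalized CPM for 160 of the 234 miRNAs (68.4%). Calls held under all 4 scalings for 94 miRNAs, 45 higher in thorax (19.2%) and 49 in gut (20.9%). Only these are described as higher in a tissue without further remark. In such bulk tissue, more cells of a type and more of a miRNA per cell cannot be told apart.

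**Figure D1:**
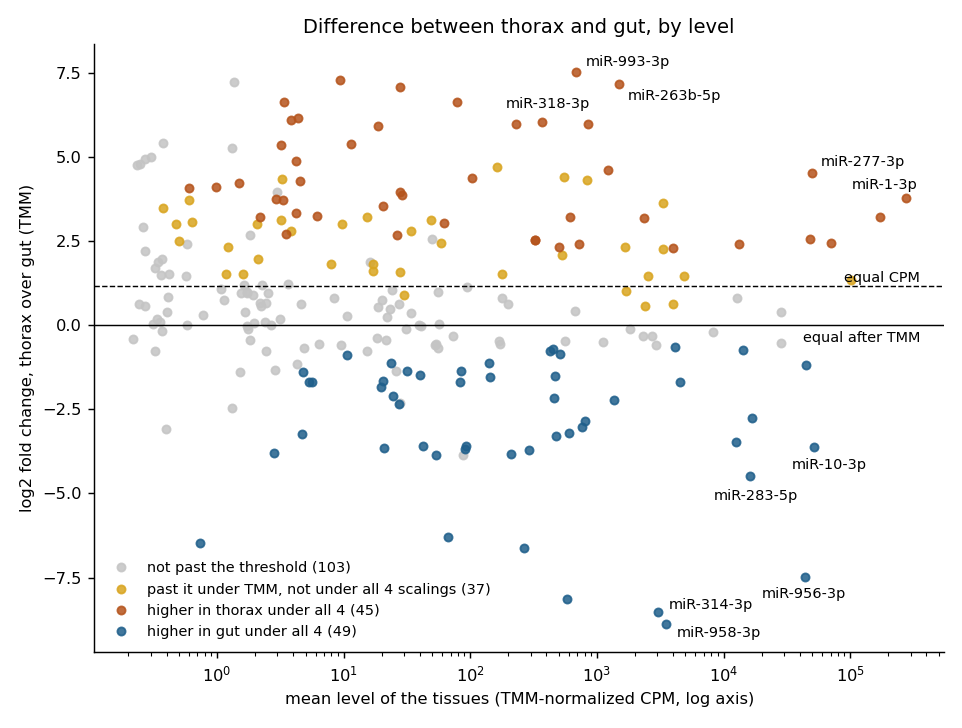
Each point is 1 of the 234 miRNAs tested, with the mean of its tissue levels in TMM-normalized CPM on a log axis and the log2 fold change, thorax over gut, on the vertical axis. The solid line marks equal levels after TMM and the dashed line, at 1.17, equal CPM. The 37 miRNAs past the threshold under TMM but not under all 4 scalings all lie above the solid line, many of them near the dashed one.

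Thorax was led by miR-1-3p, which stood at 314313, 374927 and 325695 CPM in the 3 thorax libraries and at 82156, 41353 and 44826 CPM in the gut. The tissues did not overlap, and the log2 fold change was 3.78 (SE 0.36, adjusted p = 0.000346). Its passenger strand miR-1-5p had 3 counts in thorax and 5 in gut over the 3 libraries of each and was not tested. The second most abundant thorax miRNA was miR-276a-3p, a strand with a role in fly olfactory memory, at 209959, 195984 and 212631 CPM in thorax and 19643, 62698 and 66271 CPM in gut. It was higher in thorax by 3.22 (SE 0.50, adjusted p = 0.00259), and by 1.97 without gut replicate 1, the lowest library (adjusted p = 0.00179). The 5p strands of mir-276a and mir-276b have the same sequence and the same counts in the table, so they are 1 measurement. It rose from 140 to 148 CPM in gut to 340 to 399 CPM in thorax.

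The miRNAs of the mir-277 and mir-34 locus were also abundant in thorax. Levels of miR-277-3p, which in flies acts on the breakdown of branched-chain amino acids, were 68790, 60611 and 60649 CPM in thorax and 1908, 8891 and 7814 CPM in gut. This is a log2 fold change of 4.52 (SE 0.62, adjusted p = 0.0017), which was 3.24 without gut replicate 1, again the lowest library. For miR-34-5p, known from ageing of the fly brain, thorax held 59670, 50232 and 55858 CPM and gut 23114, 17630 and 22165 CPM, with a log2 fold change of 2.57 (SE 0.21). The third hairpin of the locus yields miR-317-3p, which stood at 2998 to 3434 CPM in thorax and 4101 to 5136 CPM in gut. Its direction turned with the scaling, from 0.64 with TMM (adjusted p = 0.0269) to -0.53 with library totals (adjusted p = 0.04). Of the 6 strands from these 3 hairpins, 4 were higher in thorax, 1 in gut and 1 did not pass with TMM. Under all scalings, 2 were higher in thorax and 1 in gut. Over all miRNAs tested, the shares were 35.0% and 20.9% with TMM and 19.2% and 20.9% under all scalings.

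Both strands of mir-8, the fly member of the miR-200 family that acts on insulin signalling and growth in fat tissue, were higher in thorax. The 3p strand stood at 87587, 74175 and 77027 CPM in thorax and 36710, 32365 and 29562 CPM in gut (log2 fold change 2.45, SE 0.17, adjusted p = 0.000142). The 5p strand stood at 2459 to 3548 CPM in thorax and 625 to 755 CPM in gut (log2 fold change 3.19). Neither had an overlap between tissues, although the list of gut miRNAs used here included mir-8. In contrast, bantam-3p, a growth-promoting and anti-apoptotic miRNA, was abundant in both tissues, at 90732, 91411 and 106049 CPM in thorax and 70766, 104825 and 82991 CPM in gut. Its CPM overlapped between tissues, and its call (log2 fold change 1.34, adjusted p = 0.00281) was lost with library totals (0.16, adjusted p = 0.535).

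**Figure D2:**
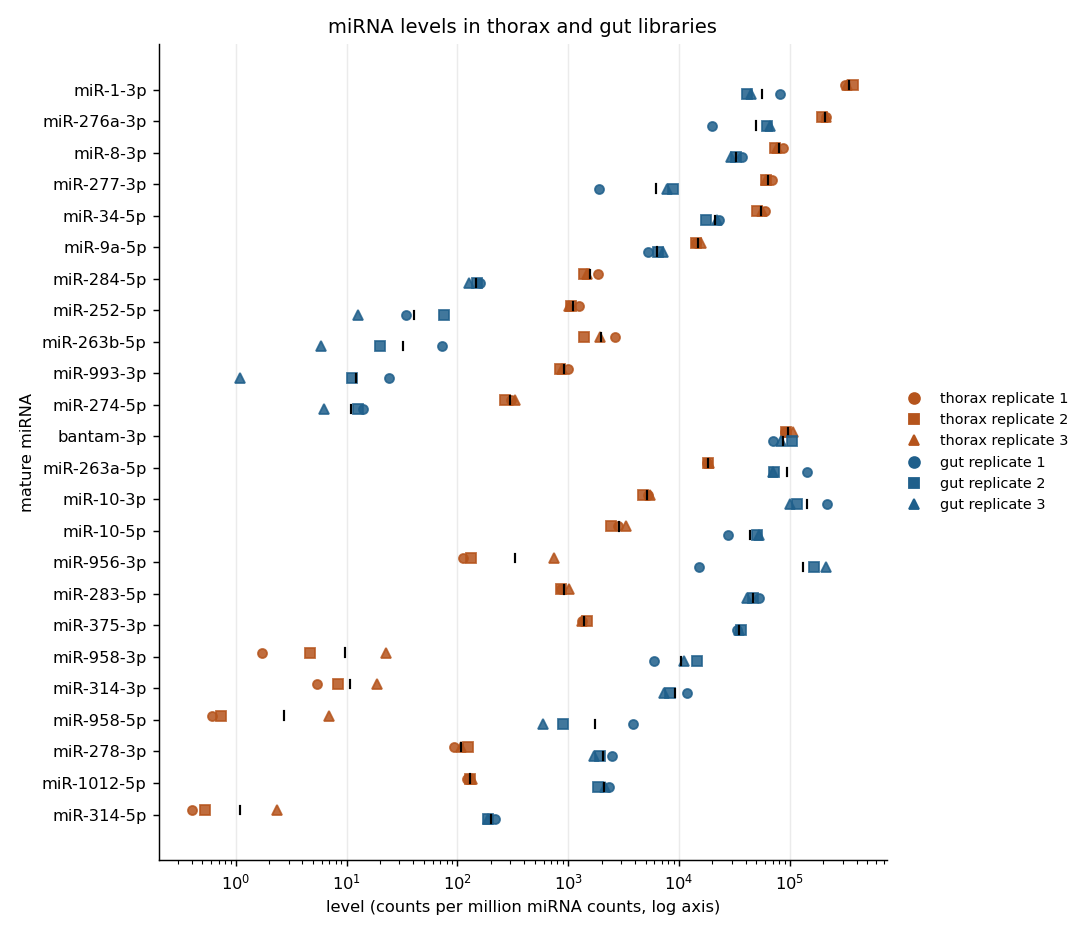
Levels of 24 miRNAs in CPM on a log axis, with thorax libraries in orange, gut libraries in blue, a symbol for each replicate and a black bar at the tissue mean. Thorax and gut libraries lie apart for every miRNA shown except bantam-3p, although the widest changes were chosen for lack of overlap. Gut replicate 1 is far from the other gut libraries for miR-956-3p (15250 against 163894 and 211450 CPM) and miR-277-3p.

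The widest rises in thorax were found at lower levels. Strand miR-993-3p was at 1002, 850 and 880 CPM in thorax and at 24.3, 11.3 and 1.10 CPM in gut, with a log2 fold change of 7.53 (SE 1.11, adjusted p = 0.00212). Its partner miR-993-5p was at 82.3, 113 and 115 CPM in thorax and 1.01, 5.08 and 0.365 CPM in gut (6.64, SE 0.95). Thorax libraries were thus close together for both strands, while the 3 gut libraries were far apart from each other.
For miR-263b-5p, which in flies protects sensory bristle cells from cell death, thorax held 2635, 1390 and 1936 CPM and gut 72.0, 19.9 and 5.84 CPM (log2 fold change 7.17, SE 1.04, adjusted p = 0.00205). Here too the 3 gut libraries were unlike each other.
The levels of miR-284-5p, which acts on glutamate receptor levels at fly neuromuscular synapses, were 1843, 1395 and 1487 CPM in thorax and 161, 150 and 127 CPM in gut, with a log2 fold change of 4.61 (SE 0.20, adjusted p = 5.6e-05). Strand miR-252-5p stood at 1022 to 1258 CPM in thorax and 12.8 to 75.1 CPM in gut (5.98, SE 0.69), and miR-274-5p at 267 to 328 CPM and 6.21 to 14.2 CPM (5.99, SE 0.38). A lack of overlap between tissues was a condition for choosing these strands.

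Of the muscle list (mir-1, mir-9a and mir-92b), 4 strands were tested, with both strands of mir-9a among them. All 4 were higher in thorax under all scalings (19.2% of all tested). Their median log2 fold change was 2.85 against 0.75 over all miRNAs tested. Since mir-1 was named as enriched in thorax by the study on these libraries, it is no independent evidence for the direction of the list. Levels of miR-9a-5p, known from sensory organ and wing development, were 14269, 14360 and 15878 CPM in thorax and 5238, 6466 and 7161 CPM in gut (2.41, SE 0.22). Its 3p strand followed at 27.7 to 31.6 CPM in thorax and 10.1 to 11.4 CPM in gut (2.66). For miR-92b-3p, which acts on the muscle factor Mef2 in flies, thorax held 126, 36.6 and 64.0 CPM and gut 20.3, 17.8 and 22.1 CPM (3.04, SE 0.46). Thorax replicate 1 was highest for this strand, and without that library its log2 fold change was 2.26 (adjusted p = 0.00656). A further muscle miRNA, miR-133-3p, known with miR-1 from vertebrate muscle, was noticed after its values were seen. It stood at 712, 775 and 610 CPM in thorax and at 26.4, 197 and 7.85 CPM in gut, and its call (4.41, adjusted p = 0.0209) was lost with library totals (adjusted p = 0.0565).

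The widest differences in favour of gut among miRNAs of at least 100 CPM were those of 3 hairpins, mir-958, mir-314 and mir-956. For miR-958-3p, which has been tied to the innate immune response of flies, gut held 5974, 14434 and 11096 CPM and thorax 1.73, 4.73 and 22.6 CPM. The log2 fold change was -8.89 (SE 1.25, adjusted p = 0.00179). Its 5p strand stood at 3810, 890 and 589 CPM in gut and at 0.61, 0.735 and 6.92 CPM in thorax (-8.12, SE 1.49). The tissues lay far apart on both strands, and thorax replicate 3 was the highest thorax library on both.
For miR-314-3p, gut held 11696, 8334 and 7373 CPM and thorax 5.39, 8.30 and 18.8 CPM (log2 fold change -8.53, SE 0.67, adjusted p = 0.000172). The 5p strand stood at 189 to 219 CPM in gut and 0.406 to 2.38 CPM in thorax (-6.30). This hairpin varied little among the gut libraries.
The most abundant of the 3 was miR-956-3p, at 15250, 163894 and 211450 CPM in gut and 111, 132 and 744 CPM in thorax (log2 fold change -7.47, SE 1.46, adjusted p = 0.00664). Its 5p strand stood at 1193, 647 and 543 CPM in gut and 1.42, 0.945 and 8.26 CPM in thorax (-6.62, SE 1.03). Gut replicate 1 was thus the lowest gut library for the 3p strand and the highest for the 5p strand. The neighbours mir-314 and mir-956 give 3p strands whose seeds share a run of 6 bases, shifted by 1 position.

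Thorax replicate 3 was the highest thorax library on all 6 of these strands. Without that library, the log2 fold changes were -10.75 for miR-958-3p, -9.50 for miR-314-3p and -9.22 for miR-956-3p, so that the gut levels exceeded those of thorax by more. The part of this library in the results beyond these values was not tested.

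The other abundant gut miRNAs were also present in thorax. Strand miR-10-3p, from a Hox complex hairpin, was at 216269, 115307 and 100164 CPM in gut and 5265, 4721 and 5473 CPM in thorax (-3.62, SE 0.34, adjusted p = 0.000346). Its 5p strand was at 27424, 50582 and 52664 CPM in gut and 2795, 2457 and 3317 CPM in thorax (-2.76, SE 0.32). Gut replicate 1 again stood apart, as the highest gut library on the 3p strand and the lowest on the 5p strand.
Levels of miR-283-5p were 52766, 46565 and 40720 CPM in gut and 864, 865 and 1022 CPM in thorax (-4.49, SE 0.21, adjusted p = 5.6e-05), and its 3p strand followed at 145 to 158 CPM and 4.23 to 5.28 CPM (-3.85). For miR-263a-5p, which acts in flies on sodium channels and sensory bristles, gut held 142008, 72088 and 70475 CPM and thorax 17769, 18240 and 18708 CPM (-1.19, SE 0.32, adjusted p = 0.0209). Chosen after its values were seen, miR-375-3p, known from hormone-producing pancreatic cells in mammals, was at 33678, 36226 and 34465 CPM in gut and 1345, 1475 and 1321 CPM in thorax (-3.47, SE 0.20). The tissues did not overlap for any of these strands, as for 68.4% of all miRNAs tested. For both strands of mir-283, this was a condition of choice.

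The gut list (mir-275, mir-305, mir-263a, mir-8, mir-314 and mir-958) had 12 strands tested. Of these, 7 were higher in gut under all scalings, compared with 20.9% of all miRNAs tested, 3 were higher in thorax with TMM, compared with 35.0%, and 2 did not pass. The 3 were both strands of mir-8 and miR-275-3p, whose CPM overlapped (1938 to 3227 in thorax and 1871 to 2283 in gut) and whose call was lost with library totals (adjusted p = 0.331). The median log2 fold change of the list was -0.96. Since mir-314 and mir-958 were named for the gut by the study on these libraries, they are no independent evidence for the direction of the list. Among the metabolic miRNAs (mir-14, mir-33, mir-278, mir-277 and mir-8), 4 of 10 strands were higher in thorax, 2 in gut and 4 did not pass, and 3 and 2 held under all scalings. These shares are near those of all miRNAs tested, 35.0% and 20.9% with TMM. The strand miR-278-3p, which acts on insulin response in the fly fat body, was at 2498, 1928 and 1726 CPM in gut and 94.1, 124 and 109 CPM in thorax (-3.04, SE 0.27). Neither miR-14-3p nor miR-33-5p passed with TMM, at 0.39 and -0.59, but with library totals miR-33-5p was higher in gut (-1.77, adjusted p = 0.00195) and miR-14-3p was at -0.78 (adjusted p = 0.147).

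Some relatives went separate ways. Of 204 distinct seeds among the tested miRNAs, 17 were shared by more than 1 name, and 5 of these 17 had calls in both directions with TMM, but only 1, that of the mir-9 strands, under all 4 scalings. The members of 2 further pairs have seeds that are close but not the same. In mir-263a and mir-263b, the 5p seeds agree at 6 of 7 positions, and the log2 fold change was -1.19 for the first and 7.17 for the second. The summed level was set by miR-263a-5p, which was also the more abundant of the pair in thorax.
The Hox complex hairpins showed a contrast as well. Strands miR-10-5p and miR-993-5p share a run of 9 bases that begins 1 position apart, and their log2 fold changes were -2.76 and 6.64. Of 5 tested strands in the list of Hox complex miRNAs, 2 were higher in gut, both of mir-10, and 2 in thorax, both of mir-993. The shares over all miRNAs tested were 20.9% and 19.2%. The remaining strand, miR-iab-4-5p, passed with library totals (-1.29) and not with TMM (-0.11).
In the mir-9 family, miR-9a-5p and miR-9b-5p have the same seed. The first was higher in thorax, and the second was at 6776, 8800 and 7136 CPM in gut against 2276, 2017 and 2128 CPM in thorax (-0.64, SE 0.17, adjusted p = 0.0208). As a result, the summed CPM of the 3 strands with this seed, miR-9a-5p, miR-9b-5p and miR-9c-5p, overlapped between tissues, from 18031 to 19693 in thorax and from 15865 to 20957 in gut. Of the 9 tested strands of the family, 2 were higher in thorax, 2 in gut, and 5 did not pass. Over all miRNAs tested, 19.2% were higher in thorax and 20.9% in gut under all scalings.

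In the mir-2 and mir-13 family, which acts against cell death genes in fly embryos, 7 of 18 tested strands were higher in gut under all scalings and 3 were higher in thorax with TMM but not under all scalings, compared with 20.9% and 35.0% of all miRNAs tested. The widest difference was that of the rare miR-308-3p, at 8.11, 7.63 and 7.85 CPM in gut and 0.102, 0.105 and 0.516 CPM in thorax (-3.78, SE 0.64), which was picked with its values known. Next were the strands of mir-2a. Strand miR-2a-1-5p was at 74.0, 75.5 and 56.2 CPM in gut and 5.08, 5.36 and 7.33 CPM in thorax (-2.34, SE 0.29), and miR-2a-2-5p at 177 to 211 CPM and 22.9 to 28.6 CPM (-1.69). Strand miR-13b-2-5p, from a hairpin in an intron of CCT2, was at 80.5 to 97.7 CPM in gut and 11.3 to 16.2 CPM in thorax (-1.48). The most abundant members, miR-11-3p and miR-13b-3p, did not pass with TMM, at -0.19 and -0.50, but were higher in gut with library totals, at -1.38 and -1.68. The summed CPM of the 9 strands with this seed was 5608 to 6909 in thorax and 14050 to 20073 in gut.
In the pair of mir-279 and mir-996, only miR-279-3p passed with TMM, at 147, 1615 and 2042 CPM in gut and 54.7 to 61.1 CPM in thorax (-3.28, SE 0.90, adjusted p = 0.0234). Gut replicate 1 lay nearer to the thorax libraries than to the other gut libraries on a log scale, and the call was lost without any 1 of the 3 thorax libraries (adjusted p = 0.0517 to 0.0634). The difference between its log2 fold change and that of miR-996-3p, at -0.57 with TMM and past the threshold with library totals (-1.75), was not tested.
In the mir-276 list, all 4 strands were higher in thorax with TMM (35.0% of all tested) and 3 under all scalings (19.2%). Both 5p strands are among these, although they are 1 measurement. The exception was miR-276b-3p, which has the seed of miR-276a-3p and was at 5218, 3577 and 3642 CPM in thorax and 167, 1987 and 201 CPM in gut. Gut replicate 2 was the highest gut library for miR-276b-3p, and gut replicate 1 the lowest for miR-276a-3p.

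Hairpins on 1 strand with gaps of at most 10 kb were taken as a genomic cluster, which gave 19 clusters with 53 hairpins that had a tested strand. Each hairpin was represented by its major strand, but a strand shared by hairpins was kept under only 1 of them. With TMM, every hairpin was called in the same direction in 5 clusters, and calls went both ways in 2. Under all 4 scalings these numbers were 2, the clusters of mir-283 and of mir-2a and mir-2b-2, and 0. In the mir-2a cluster, mir-2a-1 and mir-2b-2 were represented by 5p strands, since their 3p strands were kept under other hairpins. The shared miR-2b-3p did not pass with TMM (-0.47, adjusted p = 0.26). The gut cluster of mir-283, mir-304 and mir-12 spans 1.59 kb, and its log2 fold changes ran from -4.49 for miR-283-5p to -2.22 for miR-12-5p and -0.84 for miR-304-5p. All 3 were past the threshold, but by unequal amounts.
In the cluster of mir-9c, mir-306, mir-79 and mir-9b, which spans 0.911 kb, miR-306-5p stood at 1129 to 2027 CPM in gut and 70.3 to 81.4 CPM in thorax (-3.22), whereas miR-9c-5p and miR-79-3p did not pass with TMM (-0.33 and -0.57) but did with library totals (-1.52 and -1.76). One of the clusters with calls both ways with TMM was that of mir-275 and mir-305, which lie within 0.250 kb. Strand miR-305-5p, which acts on intestinal stem cells in flies, was at 29112, 27908 and 23698 CPM in gut and 7009, 6359 and 8077 CPM in thorax (-0.73, SE 0.17, adjusted p = 0.0127). Its neighbour miR-275-3p was at 1.46 with TMM. The let-7 complex, known for its role in the change to the adult form, spans 0.991 kb and was uneven as well: miR-125-5p was higher in thorax (868, 490 and 882 CPM against 42.6, 175 and 310 CPM, log2 fold change 3.21, adjusted p = 0.012), miR-100-5p passed with TMM (2.33, adjusted p = 0.0358) but not with library totals (adjusted p = 0.192), and let-7-5p did not pass (0.81, adjusted p = 0.116, and -0.38 with library totals). Without gut replicate 2, miR-125-5p did not pass either (adjusted p = 0.117).

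**Figure D3:**
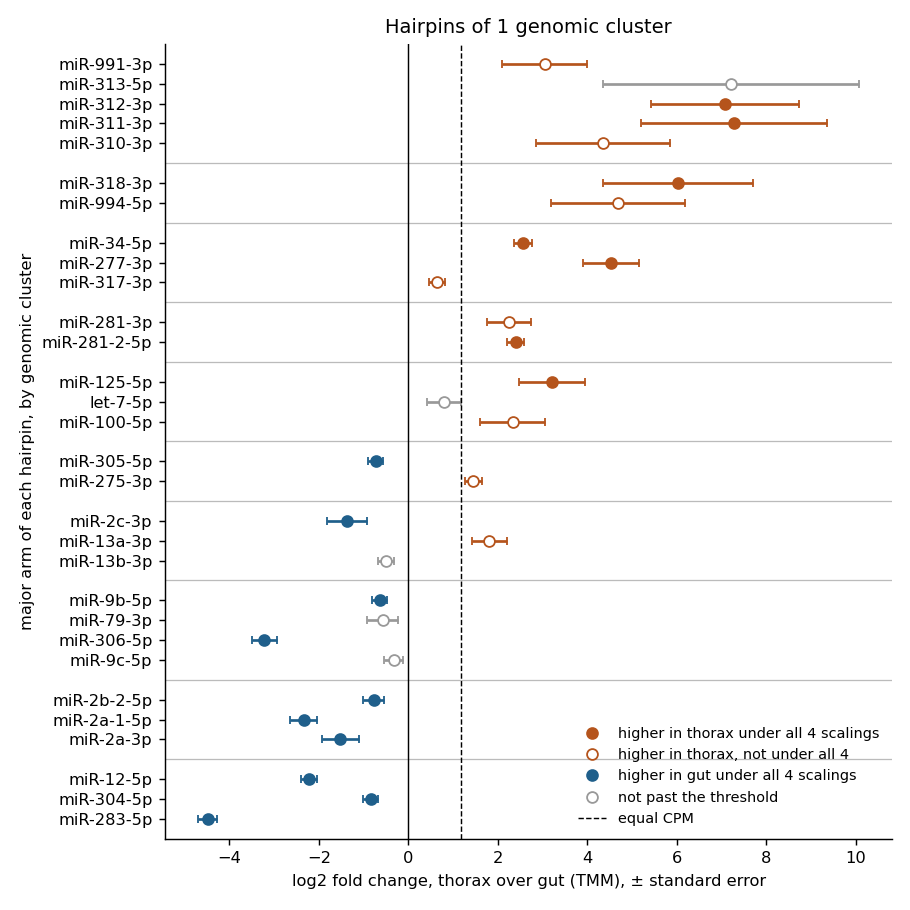
The 10 genomic clusters with at least 2 hairpins past the threshold, separated by grey lines, with the log2 fold change of the major strand of each hairpin, thorax over gut on the TMM scale, and its standard error. A hairpin whose shared strand is kept under another hairpin is shown by its remaining strand. Filled points were called under all 4 scalings, the solid line marks equal levels after TMM and the dashed line equal CPM. The mir-283 cluster lies wholly on the gut side and the mir-310 cluster on the thorax side with wide errors. The fitted value of miR-313-5p, with 58 counts in thorax and 0 in gut, depends on the prior count.

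The ratio of the 3p to the 5p strand of a hairpin within a library does not depend on the scaling. It was compared for 64 hairpins whose lesser strand had a mean of at least 10 counts per library (limma on log2 of the counts plus 0.5). In 54 of the 64 the same strand was the major one in all 6 libraries, the 3p strand in 22 and the 5p strand in 32. The ratio differed between thorax and gut for 10 hairpins (15.6%), with the 3p share higher in thorax for 3 (4.69%) and higher in gut for 7 (10.9%). Without gut replicate 1, the count was 36 of 66 hairpins, and without thorax replicate 3 it was 5. In 3 hairpins the major strand differed between the tissues in all libraries, namely mir-278, mir-282 and mir-308, of which mir-308 did not pass. The major strand of mir-308 was read from few counts: 1 and 8, 1 and 3, and 5 and 7 of its 3p and 5p strands in thorax, and 8 and 0 in gut replicate 1.

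The 3p share of mir-278 was 31.2, 42.4 and 41.3% in thorax and 96.4, 92.7 and 91.0% in gut, so that the major strand was 5p in thorax and 3p in gut. The log2 ratio of the strands, thorax minus gut, was -4.61 (SE 0.46, adjusted p = 0.000706). In levels, miR-278-3p rose in gut, while miR-278-5p overlapped between the tissues at 155 to 208 CPM in thorax and 92.3 to 172 CPM in gut. With TMM, miR-278-5p was called higher in thorax (log2 fold change 1.51, adjusted p = 0.0082), but not under all scalings.
The hairpin of mir-282 went the other way. Its 3p share was 77.4, 73.2 and 81.6% in thorax and 10.9, 19.1 and 15.7% in gut (4.25, SE 0.43, adjusted p = 0.000706). Strand miR-282-5p was at 1.42 to 2.31 CPM in thorax and 35.4 to 99.4 CPM in gut (-3.65), so these shares in thorax rest on 14 to 22 counts of the 5p strand per library.
In mir-277 the 3p strand was the major one throughout, but its 5p strand was higher in gut, at 362, 275 and 234 CPM against 58.6, 55.4 and 61.9 CPM in thorax (log2 fold change -1.12, adjusted p = 0.00858). The 3p share was 99.9% in each thorax library and 84.1, 97.0 and 97.1% in gut (log2 ratio 5.92, SE 0.73, adjusted p = 0.00169). Without gut replicate 1 the ratio was 5.04, so this hairpin differed in the other gut libraries too.
For mir-2c, the 3p share was 63.9 to 78.9% in thorax and 97.1 to 100% in gut (-4.89, SE 0.77), for mir-125 it was 2.62 to 5.32% and 16.9 to 25.5% (-2.84, SE 0.44), and for mir-965 it was 1.12 to 7.48% and 18.3 to 37.3% (-3.29, SE 0.77). The 5p strand of mir-2c had only 0, 14 and 2 counts in gut, so its ratio in gut replicate 1 depends on the added 0.5. Without that library, its log2 ratio was -4.24. For mir-125, gut replicate 1 held only 9 counts of the 3p strand and 42 of the 5p strand. The rest were mir-314, mir-7 and mir-34, with a higher 3p share in gut, and mir-306, with a higher one in thorax. Each of these 4 and mir-965 lost its call when at least 1 library was left out.

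**Figure D4:**
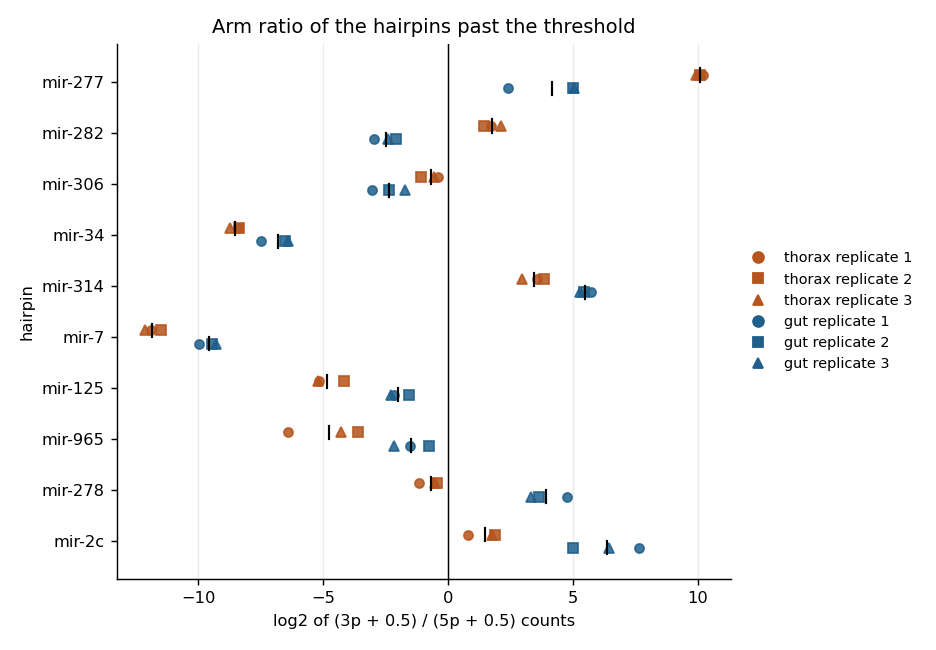
Log2 ratio of 3p to 5p counts, with 0.5 added to each, in every library for the 10 hairpins past the threshold, with thorax in orange, gut in blue and a black bar at the tissue mean. Points right of 0 have more 3p than 5p counts. Only mir-278 and mir-282 cross this line between the tissues. The thorax and gut libraries do not overlap in the hairpins shown, nor in several that did not pass, such as mir-305 and mir-317.

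Markers of other tissues were read in every library as the summed CPM of their list. The ovary and early embryo list summed to 2170, 157 and 233 CPM in thorax and to 158, 138 and 171 CPM in gut. Of its 20 strands, 10 were tested, 4 of which were higher in thorax with TMM (35.0% of all tested) and 1 under all scalings (19.2%). In all 6 libraries, 5 strands were at 0, both of mir-309 among them. The follicle cell strand miR-318-3p was at 1471, 36.8 and 48.5 CPM in thorax and 21.3, 9.32 and 19.5 CPM in gut (log2 fold change 6.02, SE 1.68, adjusted p = 0.024). Thorax replicate 1 stood apart by far, and without it the log2 fold change was 2.30 (adjusted p = 0.0128), whereas without any 1 gut library the call was lost (adjusted p = 0.0823 to 0.0862). Strand miR-994-5p, from a hairpin in the same 0.233 kb cluster, was at 632, 22.9 and 23.5 CPM in thorax and 10.6 to 26.3 CPM in gut, and its call (4.68, adjusted p = 0.0373) was lost without that library (1.28, adjusted p = 0.0784). The opposite was seen for miR-989-3p, known from border cells of the ovary, for which thorax replicate 1 was lowest, at 13.6 against 58.9 and 42.7 CPM, with 9.13 to 17.7 CPM in gut.
The list of mir-310 to mir-313 and mir-92 followed thorax replicate 1, with sums of 349, 84.8 and 119 CPM in thorax and 123 to 146 CPM in gut. For miR-312-3p, thorax held 107, 5.99 and 6.09 CPM and gut 0, 0.282 and 1.10 CPM. For miR-311-3p, thorax held 37.4, 0.840 and 1.96 CPM and gut 0, 0 and 0.365 CPM. Its 395 counts in thorax, 368 of them in thorax replicate 1, stood against 2 in gut. The pooled ratio of 92.1 in CPM (95% interval 25.3 to 763, for counting error only) thus rests mostly on that library. Both remained past the threshold without thorax replicate 1, at 4.23 and 3.94, but miR-311-3p lost its call without any 1 gut library (adjusted p = 0.0804 to 0.112) and miR-312-3p without gut replicate 2 (adjusted p = 0.0559). Of the 10 tested strands of this list, 4 were higher in thorax with TMM (35.0% of all tested), and 3 of these under all scalings (19.2%). The part of ovary-related miRNAs in these results beyond the values without thorax replicate 1 was not tested.

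In the neuronal list, mir-124 and mir-210 were named by the study on these libraries and so are no independent evidence. The list summed to 175, 182 and 221 CPM in thorax and to 1315, 1284 and 1004 CPM in gut. Its 11 tested strands had 5 calls for thorax and 2 for gut, compared with 35.0% and 20.9% of all miRNAs tested. Of these calls, 2 and 2 held under all scalings, compared with 19.2% and 20.9% of all miRNAs tested. The gut sum was mostly miR-137-3p, at 1290, 1126 and 982 CPM in gut and 105, 118 and 109 CPM in thorax (-2.17, SE 0.21). The thorax calls were for rare strands. Strand miR-219-3p was at 3.15, 4.41 and 3.31 CPM in thorax and 0, 1.13 and 0.183 CPM in gut (3.75, SE 0.73), and miR-124-5p at 2.79 to 6.60 CPM and 0 to 1.41 CPM (3.70, SE 0.81). The count of 0 in gut replicate 1 allows up to 3.04 CPM of either strand. Without gut replicate 3, miR-124-5p lost its call (2.64, adjusted p = 0.0623). The most widely used neuronal marker strand, miR-124-3p, did not pass (0.02). Gut replicate 2 was the highest gut library for the neuronal strands miR-124-3p (10.9 against 0 and 0.730 CPM) and miR-315-5p (91.6 against 3.04 and 4.20 CPM), and also for miR-133-3p and miR-276b-3p. Without it, the log2 fold change of miR-133-3p was 5.94 and that of miR-276b-3p 4.81 (adjusted p = 0.000634 and 0.000889). Both calls were lost without at least 1 other library.
Thorax replicate 3 held 44.9 CPM of the brain miRNA miR-210-3p against 4.57 and 5.46 CPM in the other thorax libraries and 2.01 to 7.91 CPM in gut. Its call (3.22, adjusted p = 0.0477) was lost without that library (1.04, adjusted p = 0.231).

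The fat body list, taken from earlier results of these libraries, summed to 17.8, 13.3 and 15.7 CPM in thorax and to 0, 0.565 and 1.28 CPM in gut. It held miR-1015-3p, a mirtron from an intron of CG6432, at 12.9 to 16.9 CPM in thorax (log2 fold change 5.37, SE 0.62), and 2 of its 3 strands were at 0 in gut. The testis list summed to at most 1.27 CPM in any library, with 9 of its 16 strands at 0 in all 6 libraries and none tested. Mirtrons, whose hairpins are short introns released by splicing, had 4 calls for thorax and 4 for gut among 19 tested strands, with TMM shares of 35.0% and 20.9% over all miRNAs tested. Both strands of mir-1012, from an intron of Lerp, were higher in gut: the 5p strand was at 2311, 1875 and 2164 CPM in gut and 123, 131 and 136 CPM in thorax (-2.85, SE 0.22), and the 3p strand at 425 to 880 CPM and 17.2 to 19.1 CPM (-3.83). In the cluster of mir-959 to mir-964, 3 strands were tested and none passed.

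**Figure D5:**
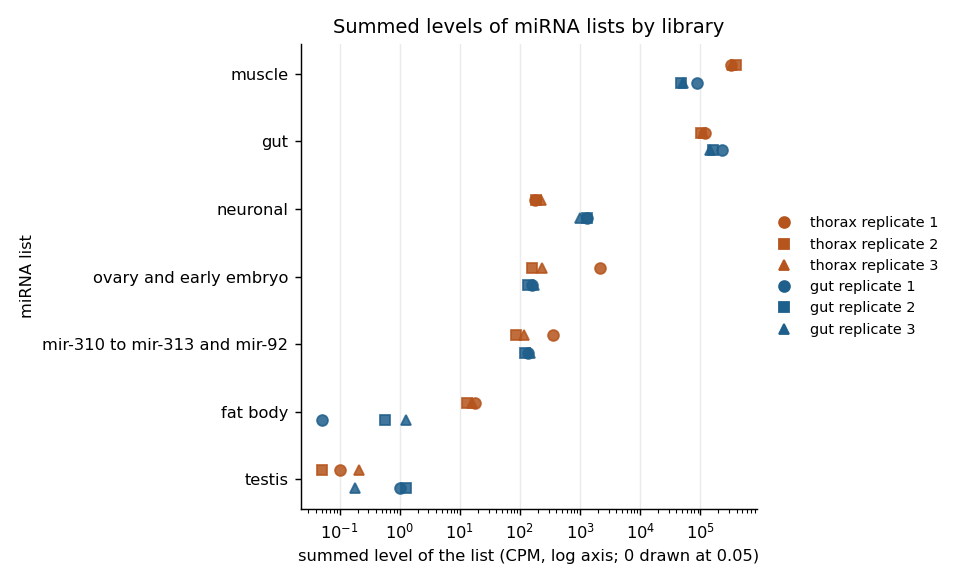
Summed CPM of 7 miRNA lists on a log axis in every library, with thorax in orange and gut in blue and a sum of 0 drawn at 0.05. Thorax replicate 1 lies far to the right of all other libraries for the ovary and early embryo list (2170 CPM against 138 to 233 CPM) and for the list of mir-310 to mir-313 and mir-92.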

How the data were processed

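Small RNA was size-selected on a gel before sequencing, and the authors used miRDeep to assign reads. The values are whole read counts per mature miRNA as deposited, with no normalization. Not given in the sources used here were the miRBase release, the mismatches allowed and the genome build. Of 434 entries, those with the same mature name were reduced to the one with the highest total. Counts were fitted in R 4.3.3 with edgeR 4.0.16 on the 6 libraries (common dispersion 0.268, coefficient of variation 51.7%). Strand ratios were fitted with limma 3.58.1. Fold changes are thorax over gut. The miRNAs named are the 5 most abundant of each tissue, the 8 widest changes in each direction with at least 100 CPM and no overlap between tissues, up to 3 called members of each list, miR-1, miR-958, miR-314 and miR-956, and the 6 hairpins with the widest change of strand ratio. Any other miRNA was picked with its values known. The members and lists were chosen with earlier results of these data known. Hairpins sharing reads with another entry (15 of 196) were left out of the strand ratios. The alternatives were other scalings, filters and tests, each library left out, and a replicate block. The procedures were also run on simulated data with the same spread in both tissues and as many rises as falls. Such data do not test the choice of scaling or the effect of a single unusual library. Figures were drawn in Python 3.11.15 with matplotlib 3.10.9. The authors' poly(A) counts of heads were not used here.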

Additional observations from a re-analysis of the deposited data

How the results depend on the processing

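With DESeq2, limma-voom, other filters, all 12 small RNA libraries or summed entries, the count of miRNAs called stayed within 1.5 times of 131. With library totals, 45 were higher in thorax and 83 in gut. The stricter count filters gave 62 and 59 or 61 and 57, so the excess for thorax was small with them. Leaving out each library in turn gave 46 to 64 higher in thorax and 47 to 73 in gut. The 82 with all libraries lies above that thorax range, and each of the 3 gut libraries left out turned the balance towards gut (50 against 73, 52 against 61 and 46 against 58). Calls under all 4 scalings, chosen as a count after seeing the data, numbered 77 to 101 with 1 library left out, 81 without thorax replicate 1, 78 without thorax replicate 3 and 101 without gut replicate 1. Of the 94, 69 held without each library in turn, 30 for thorax and 39 for gut. The strand ratio gave 19 hairpins with no minimum for the lesser strand and 5 to 36 with 1 library left out.

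Whether same-numbered thorax and gut libraries come from the same flies is not stated. Their deviations correlated at 0.082, 0.195 and -0.042, and those of libraries with unlike numbers at -0.161 to 0.063. With 3 libraries per tissue, these values cannot decide whether the samples are paired. With a replicate block, 104 miRNAs and 7 hairpins passed. Calls lost with it were those of miR-263a-5p (-1.12, adjusted p = 0.0565), miR-279-3p (-2.70, adjusted p = 0.0814), miR-994-5p (3.00, adjusted p = 0.111) and the strand ratios of mir-306, mir-34 and mir-7 (adjusted p = 0.0628 to 0.0668). Of 59 single miRNAs and hairpins followed, 43 kept their call under all alternatives that gave a value, 16 lost it under at least 1, and 0 reversed. These 59 were not all that were called. Not among them was miR-317-3p, whose call turned from thorax with TMM to gut with library totals. The shallow gut replicate 1 limits rare miRNAs most, where a count of 0 allows 3.04 CPM.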
